A study of Mus musculus with 4 samples.

Results

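The genes described here are 40 mouse genes of the DNA damage response and DNA repair, followed on Affymetrix MG_U74Av2 arrays of total liver RNA. They were listed by name, and every probe set whose only annotated gene symbol was one of the 40 was taken. This gave 52 of the 12488 probe sets and 38 of the 40 genes; Xrcc2 and Rad18 were not analysed here. Liver RNA came from male mice of the B6SJL hybrid strain aged 58 to 60 days; after weaning they were kept for 4 weeks on chow with 70% carbohydrate and 10% protein. Of the 4 arrays, 2 were of wild-type mice without a transgene and 2 of PEPCK-TAg mice. In PEPCK-TAg mice, large T and small t antigen of SV40 are expressed from the promoter of Pck1, the phosphoenolpyruvate carboxykinase gene, which is active in hepatocytes and kidney. The question is how long exposure to low levels of these oncoproteins alters hepatic expression, and the single comparison is between the 2 genotypes. The labels speak of duplicate measurements and do not say whether duplicates are separate animals, so the p-values rest on a spread that may be technical.

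Cells repair DNA by several routes that act on different lesions. Homologous recombination copies the sister chromatid to mend a double-strand break, and end joining ligates the broken ends directly. Mismatch repair corrects errors of the replication polymerases, base excision repair removes single damaged bases, and nucleotide excision repair cuts out bulky adducts. Checkpoint kinases hold the cell cycle while this happens. In the adult liver most hepatocytes are out of the cell cycle, and homologous recombination works mainly in cells that are replicating DNA. Large T binds the retinoblastoma proteins, which restrain the E2F transcription factors, and it binds p53.

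Each array gave 1 signal per probe set, a number in arbitrary units from the MAS5 software. The hepatocyte gene Alb read 12446 to 16723 on the 4 arrays of this tissue. Across 7453 probe sets, which are not independent replicates, log2 signals of the wild-type duplicates correlated at r = 0.965 and those of the PEPCK-TAg duplicates at 0.966. Pairs of unlike genotype reached 0.896 to 0.914. The ratio of 3′ to 5′ actin control signal, a sign of RNA quality, was 4.06 to 4.87 in wild type and 4.79 to 5.06 in PEPCK-TAg. The same ratio for Gapdh was 3.67 to 3.80 in wild type and lower, 2.95 to 3.36, in PEPCK-TAg. Another 19 control probe sets are for yeast and bacterial transcripts and read 1.10 to 40.4 over the 4 arrays. No detection calls were used here, so a signal in that range cannot be told from background. Total liver RNA also cannot tell apart a change in the number of cells of a type from a change in RNA per cell.

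Among the 40 listed genes, those called higher in PEPCK-TAg were the checkpoint gene Chek1, the recombination genes Brca2 and Brca1, and the cohesin gene Rad21. Rad21 is grouped here with recombination, and the calls of Brca1 and Rad21 were lost with no filter. Differences between routes were not tested. Log2 changes are differences of log2(signal + 13), which understate changes of dim genes, and a probe set was tested when its mean over the 4 arrays reached the 40th percentile. Of the 38 genes, 34 passed this filter, and 4 of these 34 (11.8%) were higher in PEPCK-TAg liver while 0 were lower (limma, Benjamini-Hochberg adjusted p under 0.05 over 7453 probe sets, each gene read from its probe set of highest mean). Over all 5650 genes tested 6.83% were higher and 3.01% lower. At an unadjusted p under 0.05 the limma counts were 10 higher and 0 lower of 34, against 16.6% and 11.3% of all genes tested. Wild-type means of Chek1, Brca1 and Brca2 lay below 48.1, the signal of the filter, as did those of Blm and Atm, which were not called. These genes passed the filter only through their PEPCK-TAg signal. For Atm, whose groups overlapped, it was that of replicate 1 (82.4, against 47.7 on replicate 2). Neither the share of 11.8% nor the unadjusted count is therefore support for a difference of the list. With no filter, 2 of the 38 genes were called higher, Chek1 and Brca2, against 3.28% higher of all 8251 genes. The median log2 change was 0.22 over the 34 genes and 0.01 over all genes tested, and it was 0.20 over the 38 genes with no filter.

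**Figure D1:**
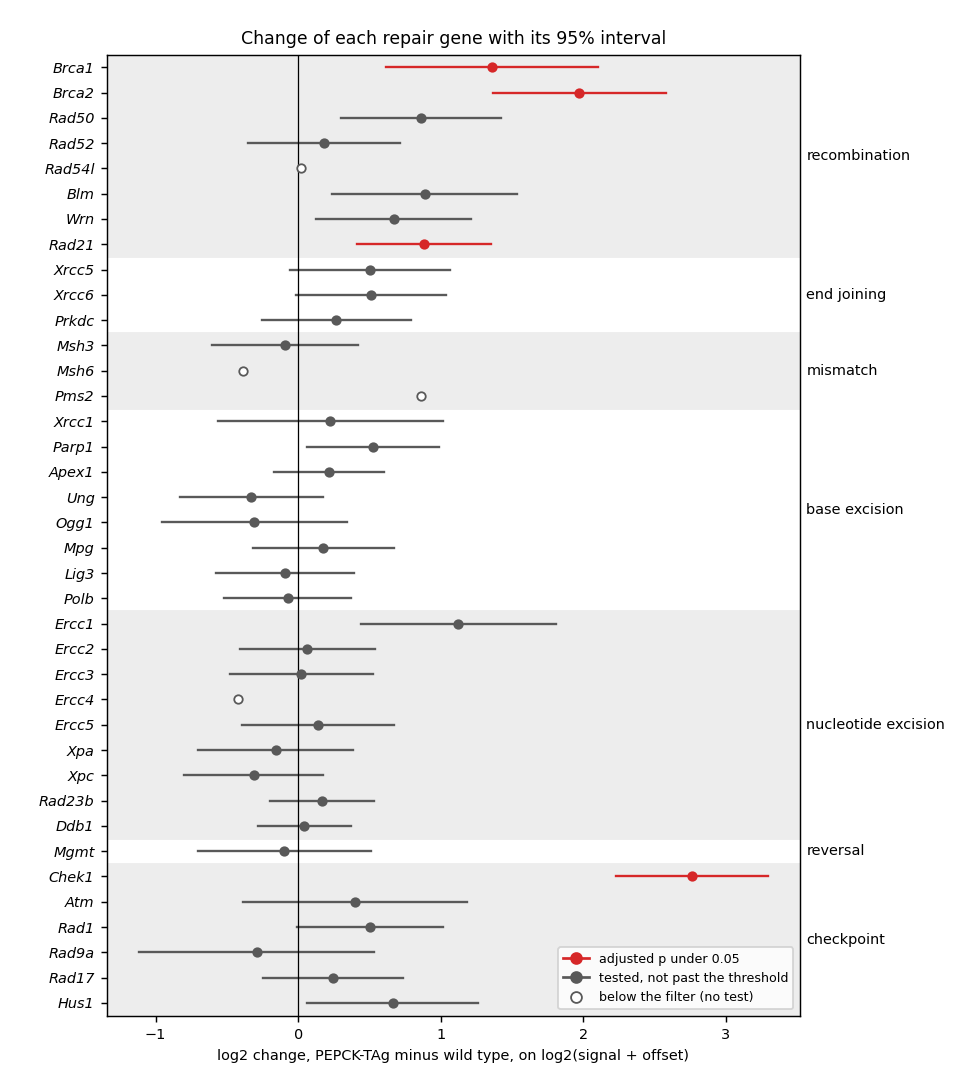
Log2 change from wild type to PEPCK-TAg (x axis) for the 38 repair genes, grouped by route, with points for the fitted change and bars for its 95% interval from limma (2 arrays per group). Red marks Brca1, Brca2, Rad21 and Chek1, which passed an adjusted p of 0.05; open circles mark the 4 genes below the filter, which have no test, and most excision repair genes sit near 0.

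Both PEPCK-TAg arrays read above both wild-type arrays for 17 of the 34 genes (50.0%, against 31.2% of all genes tested), and below them for 3 (8.82%, against 26.7%). The 17 include Chek1, Brca1, Brca2 and Blm, whose wild-type means lay below the filter, so the share of 50.0% is no support either. With no filter they read above for 18 of the 38 genes, against 2327 of all 8251, and below for 4, against 2009. The changes of 21 of the 34 genes were smaller than 0.5 in size. The intervals were wide: among the 30 genes not called, 20 had a 95% interval whose upper end lay below 1, which is a doubling, and for the other 10 a doubling was inside the interval.

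**Figure D2:**
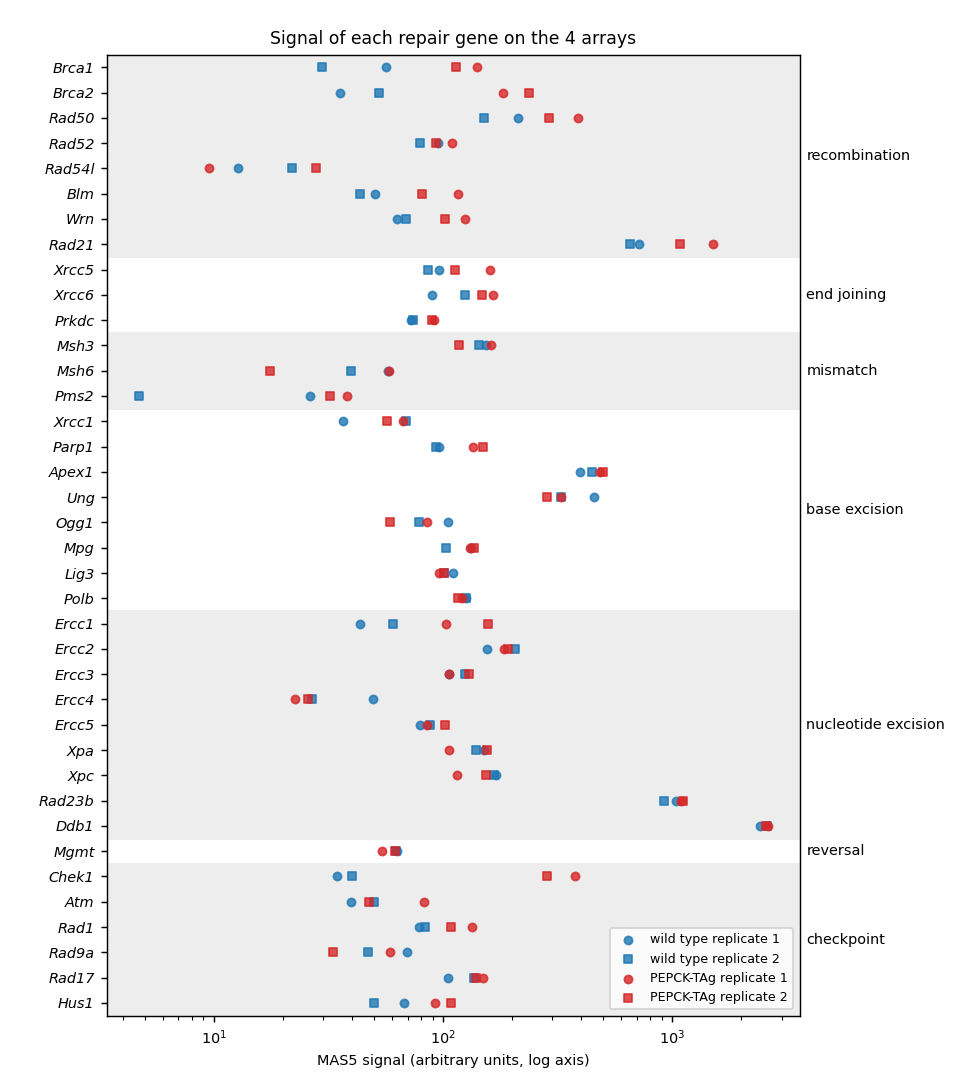
MAS5 signal (x axis, log scale, arbitrary units) of the 38 repair genes on each of the 4 arrays, 1 point per array, blue for wild type and red for PEPCK-TAg. Chek1 shows the widest gap between groups, from 34.3 and 40.1 to 378 and 284, and the points of Ddb1 lie almost on top of each other.

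Chek1 encodes the checkpoint kinase that is activated by ATR at stalled replication forks and blocks CDC25 phosphatases. Wild-type livers gave signals of 34.3 and 40.1, and PEPCK-TAg livers gave 378 and 284. The PEPCK-TAg mean was 8.90 times the wild-type mean (331 ± 66.7 against 37.2 ± 4.10, SD, n = 2 each), with the groups far apart. The log2 change was 2.77 ± 0.22 (SE; limma adjusted p = 0.00179), the largest among the 34 genes, and it was called in all 12 alternative settings that tested the gene, with adjusted p from 0.000446 to 0.00952. The signal on wild-type replicate 1 lies within the range of the yeast and bacterial controls of that array. On replicate 2 it lies above the highest control there, 24.6, but within the range over the 4 arrays. The size of the ratio is therefore uncertain.

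The other checkpoint genes showed smaller differences, and 0 of these 5 passed. Rad1, Rad9a and Hus1 encode the 3 subunits of the ring clamp that is loaded at damaged DNA to activate ATR, and Rad17 encodes its loader. Hus1 read 67.4 and 49.9 in wild type, against 91.9 and 108 in PEPCK-TAg, a log2 difference of 0.66 (limma adjusted p = 0.155). Rad1 read 78.6 and 83.5 against 134 and 109, a log2 difference of 0.50 (limma adjusted p = 0.196). For both genes the groups did not overlap, though the other Hus1 probe sets, below the filter, had overlapping groups. Rad9a, the third subunit, had overlapping groups, with 69.5 and 47.0 against 58.5 and 33.2. The clamp loader gene Rad17 differed by 0.25 and Atm, the kinase that answers double-strand breaks, by 0.40 with overlapping groups. The 95% intervals of Rad17 (-0.24 to 0.73) and of Atm (-0.38 to 1.18) included 0.

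Brca2 encodes a protein needed for homologous recombination at resected DNA ends. Its signals were 35.4 and 52.7 in wild-type liver, against 183 and 237 in PEPCK-TAg liver. The groups lay well apart, and the log2 change was 1.97 ± 0.25 (SE; limma adjusted p = 0.00716), a mean signal 4.76 times as high. One wild-type signal, 35.4, lies within the range of the yeast and bacterial controls, so the size of this ratio is uncertain too. The call held in all 12 alternatives that tested the gene (adjusted p 0.00148 to 0.0295).

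Brca1, a ubiquitin ligase subunit that promotes end resection and recombination, read 56.6 and 29.5 in wild type, against 141 and 114 in PEPCK-TAg. The groups did not overlap, though the duplicates of wild type lay far apart. The lower, 29.5, lies in the control range over the 4 arrays but above the highest control on its own array, 24.6. The log2 change of Brca1 was 1.36 ± 0.31 (SE; limma adjusted p = 0.0422). Brca1 missed the threshold in fits without wild-type replicate 2 (adjusted p 0.0838), PEPCK-TAg replicate 1 (0.146) or PEPCK-TAg replicate 2 (0.0732), with quantile normalization (0.0568) and with no filter (0.0977).

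Rad21 encodes the kleisin subunit of cohesin, the ring that holds sister chromatids together and is needed in recombination and in mitosis. It read 717 and 657 in wild type, against 1503 and 1085 in PEPCK-TAg, above the range of the yeast and bacterial controls on every array. The log2 change was 0.88 ± 0.20 (SE; limma adjusted p = 0.0393), a mean 1.88 times as high. Rad21 missed the threshold when either wild-type array was left out (adjusted p 0.0927 without replicate 1 and 0.107 without replicate 2) and when PEPCK-TAg replicate 1 was (0.145). It also missed it with median centring (0.0712), with no filter (0.0704) and with eBayes without the trend (0.0742).

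Of the remaining recombination genes, 3 had both PEPCK-TAg arrays above wild type without passing the threshold, a pattern seen in 31.2% of all genes tested. One of them, Blm, had a wild-type mean of 46.8, below the filter, so it was tested only through its PEPCK-TAg signal. Rad50, the ATPase subunit of the complex that tethers broken ends, read 212 and 151 against 389 and 289 (log2 difference 0.86, limma adjusted p = 0.0695). Blm and Wrn encode RecQ helicases that unwind recombination intermediates. Blm read 50.4 and 43.2 against 116 and 81.2 (0.89, limma adjusted p = 0.0959), and Wrn 62.8 and 69.1 against 125 and 102 (0.67, limma adjusted p = 0.123). Rad52, which encodes a strand-annealing protein, read 95.4 and 79.3 against 109 and 92.7, with overlapping groups. Rad54l, the gene of a motor protein of recombination, read 9.50 to 28.0 over the 4 arrays and lay below the filter. The median log2 change of the 7 recombination genes tested, with the cohesin gene Rad21 among them, was 0.88. In all, 3 of the 7 were higher and 0 lower, against 6.83% and 3.01% of all genes tested. Of these 3, Brca1 and Brca2 were tested only through their PEPCK-TAg signal, and with no filter 1 of 8 was called.

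The promoters of the genes called higher are shown because E2F factors, which large T is known to release, bind promoters of many S-phase genes. RefSeq windows on the GRCm38.p6 assembly were matched by symbol for 31 of the 40 genes, among them Chek1, Brca2 and Brca1 but not Rad21. Each line gives the 250 bases before the annotated start, 5′ to 3′ on the strand of the gene, with motif matches in capitals. They lie at chr9:36726659-36726908 on the minus strand for Chek1, chr5:150522371-150522620 on the plus strand for Brca2 and chr11:101551956-101552205 on the minus strand for Brca1.
Chek1: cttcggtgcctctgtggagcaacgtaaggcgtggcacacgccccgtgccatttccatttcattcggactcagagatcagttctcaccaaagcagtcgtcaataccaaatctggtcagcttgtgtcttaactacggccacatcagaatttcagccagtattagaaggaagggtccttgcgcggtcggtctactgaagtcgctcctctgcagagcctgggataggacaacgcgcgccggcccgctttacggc
Brca2: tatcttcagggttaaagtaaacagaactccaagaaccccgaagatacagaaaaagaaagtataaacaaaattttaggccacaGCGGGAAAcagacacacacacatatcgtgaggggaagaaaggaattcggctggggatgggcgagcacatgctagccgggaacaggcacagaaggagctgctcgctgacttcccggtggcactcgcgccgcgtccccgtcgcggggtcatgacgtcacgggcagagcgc
Brca1: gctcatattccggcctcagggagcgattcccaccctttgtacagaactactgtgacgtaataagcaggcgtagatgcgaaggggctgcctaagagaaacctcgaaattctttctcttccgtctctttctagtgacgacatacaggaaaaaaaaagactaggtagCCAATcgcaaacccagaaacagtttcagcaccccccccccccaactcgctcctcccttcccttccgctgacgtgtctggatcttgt
The motifs searched on both strands of the 300-base windows, which run to 50 bases after the start, were the E2F octamers TTTCCCGC, TTTGGCGC, TTTCGCGC and TTTGCCGC, the cell cycle homology region TTTGAA, and the NF-Y box CCAAT. No motif contains another. Brca2 held 1 E2F match, GCGGGAAA, starting 168 bases before the start, which is TTTCCCGC on the other strand. Brca1 held 1 CCAAT box, starting 86 bases before the start, and Chek1 held no match to any of these letters. An E2F match was found in 4 of the 31 genes (Brca2, Msh3, Msh6 and Xrcc6; 12.9%), against 2.60% of all 27025 genes with a window. TTTGAA was found in 2 of 31 (6.45%, against 20.2%) and CCAAT in 17 of 31 (54.8%, against 41.1%). Of the 4 genes with an E2F match, Brca2 alone was called, and Msh6, below the filter, had no test.

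The 3 end joining genes were measured and 0 passed the test, also at an unadjusted p under 0.05 (limma). All 3 read higher on both PEPCK-TAg arrays, as did 31.2% of all genes tested, and all 3 intervals included 0. Xrcc5 and Xrcc6 encode the Ku subunits that cap a broken end, and Prkdc the kinase that Ku recruits. Xrcc6 read 89.9 and 125 in wild type, against 166 and 147 in PEPCK-TAg, a log2 difference of 0.51 (95% interval -0.02 to 1.03). Xrcc5 read 96.2 and 86.2 against 161 and 112, a difference of 0.50 (-0.06 to 1.07). Prkdc had the closest replicates, 72.3 and 73.7 against 91.2 and 89.8, and a difference of 0.27 (-0.26 to 0.79).

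Mismatch repair was barely measured. Msh3 and Msh6 encode proteins that recognise loops and mismatches, and Pms2 the endonuclease subunit that nicks the strand. Msh3 read 154 and 143 in wild type, against 162 and 118 in PEPCK-TAg, with overlapping groups and a log2 difference of -0.09 (95% interval -0.60 to 0.42). Msh6 (57.6 and 39.8 against 58.2 and 17.5) and Pms2 (26.2 and 4.70 against 38.0 and 32.1) lay below the filter, with signals that on some arrays lie in the control range.

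Base excision and single-strand break repair had 8 genes tested, of which 0 passed. At an unadjusted p under 0.05 (limma) 1, Parp1, was higher, against 16.6% of all genes tested. The median log2 change was 0.05. Parp1 encodes the polymerase that marks DNA nicks with poly(ADP-ribose) and read 96.0 and 93.0 in wild type, against 135 and 149 in PEPCK-TAg (0.52, limma adjusted p = 0.148). Apex1, the gene of the endonuclease that cuts at a base-free site, read 397 and 447 against 485 and 501, with groups just apart and a difference of 0.22. The gap-filling polymerase gene Polb read 126 and 126 against 121 and 117, a difference of -0.07 (95% interval -0.52 to 0.37). Lig3, a nick ligase gene, had a difference of -0.09 and the scaffold gene Xrcc1 one of 0.22, both with overlapping groups. The glycosylase genes Ogg1 (8-oxoguanine; -0.31) and Mpg (alkylated purines; 0.18) also had overlapping groups. A second Xrcc1 probe set, below the filter, went the other way. It read 57.7 and 43.6 in wild type, against 39.9 and 26.6 in PEPCK-TAg, with groups apart.

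Ung, which encodes the glycosylase that removes uracil from DNA, depended on the probe set. The brighter probe set, whose name marks probes chosen with relaxed rules, read 456 and 326 in wild type, against 327 and 284 in PEPCK-TAg, a log2 difference of -0.33. The other read 194 and 175 against 324 and 254, with groups apart and a difference of 0.61 (limma adjusted p = 0.104). Neither passed the test, and the pair disagreed in direction.

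Nucleotide excision repair had 8 of 9 genes tested, with 0 called. At an unadjusted p under 0.05 (limma) 1, Ercc1, was higher, against 16.6% of all genes tested. The median log2 change was 0.05. Ercc1, whose product forms with that of Ercc4 the nuclease that cuts 5′ of the lesion, read 43.5 and 60.3 in wild type, against 103 and 158 in PEPCK-TAg. Both PEPCK-TAg arrays lay above wild type, and the difference was 1.12 ± 0.29 (SE; limma adjusted p = 0.0588). Its partner Ercc4 read 49.6 and 26.7 against 22.5 and 25.8 and lay below the filter.

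None of the damage sensors and opening factors of this route reached an unadjusted p under 0.05 (limma). Ddb1, an adaptor of the ubiquitin ligase that finds ultraviolet lesions, read 2424 and 2601 in wild type, against 2617 and 2563 in PEPCK-TAg, a difference of 0.04 (95% interval -0.28 to 0.37). Rad23b, the partner of XPC, read 1039 and 918 against 1090 and 1110, with groups just apart and a difference of 0.17 (-0.19 to 0.53). Xpc itself, the lesion sensor gene, read 170 and 166 against 115 and 153, below wild type on both arrays, with a difference of -0.31 (limma adjusted p = 0.392). The helicase genes Ercc2 and Ercc3, which encode subunits of TFIIH, had differences of 0.07 and 0.02, the nuclease gene Ercc5 one of 0.14 and the scaffold gene Xpa one of -0.16, all with overlapping groups. Mgmt, the single gene of direct reversal, whose product takes alkyl groups off guanine, read 63.1 and 62.4 against 54.3 and 61.4 (difference -0.10, 95% interval -0.70 to 0.51).

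More than 1 probe set was present for 12 of the 38 genes. Of the 52 probe sets 38 were tested, and 4 were higher and 0 lower, as by gene, against 6.4% and 3.07% of all 7453 probe sets. Ddb1 (0.04 and -0.14), Rad23b (0.17 and 0.08), Ercc2 (0.07 and -0.17) and Ung had 2 tested probe sets each, and none of these was called. The 4 genes called higher had 1 probe set each, so no second probe set could be compared. For Parp1, Ung, Rad23b and Xrcc1 the probe set read here has a name that marks relaxed or shared probe sequence, so its signal can hold related transcripts.

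Repair genes outside the 40 were taken from a list of 102 textbook genes; 44 could be matched to a probe set and 33 passed the filter. By limma, 13 of the 33 (39.4%) were higher and 0 lower, against 6.83% and 3.01% of all genes tested, and 7 of the 13 had a wild-type mean below the filter. At an unadjusted p under 0.05 (limma) there were 20 higher and 0 lower, against 16.6% and 11.3% of all genes tested. With no filter 11 of the 44 were called higher, against 3.28% of all 8251 genes. In recombination 4 of 8 rose: the single-strand binding genes Rpa1, Rpa2 and Rpa3, by 1.94, 1.21 and 1.25 in log2, and the helicase gene Recql, by 0.95. Rpa2 and Rpa3 had wild-type means of 33.5 and 43.2, below the filter. With no filter Rpa1 alone of 11 was called, and limma adjusted p was 0.0754 for Rpa2, 0.104 for Rpa3 and 0.0572 for Recql. Rpa1 read 234 and 188 in wild type, against 936 and 763 in PEPCK-TAg.

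In base excision repair 3 of 4 other genes rose, the DNA ligase gene Lig1 (14.6 and 46.1 against 260.4 and 251; 2.73 in log2), the flap endonuclease gene Fen1 (1.70) and Parp2 (1.12). One wild-type signal of Lig1 lies in the control range, so the size of its change is uncertain, and its second probe set, below the filter, read 62.4 and 14.8 against 17.7 and 60.8, with overlapping groups. The products of Lig1 and Fen1 also join and trim the fragments of the lagging strand in replication. Among checkpoint genes 5 of 8 rose, including the mitotic phosphatase gene Cdc25c (2.30), the fork protection gene Timeless (1.39), the histone gene H2ax (1.68) and Topbp1, an activator of ATR (1.72). Usp1, which encodes a deubiquitinase of the replication clamp, rose by 1.25, as 1 of 6 post-replication genes. Over all genes tested the share higher was 6.83%. Wild-type means lay below the filter for 2 of the 3 base excision genes (Lig1 and Fen1) and 3 of the 5 checkpoint genes (Cdc25c and Topbp1 among them). These were tested only through their PEPCK-TAg signal. With no filter 3 of 6 base excision, 6 of 9 checkpoint and 1 of 7 post-replication genes were called higher. Nucleotide excision repair again had 0 of 6 called, with a median of 0.14. At an unadjusted p under 0.05 (limma) 1 was higher, against 16.6% of all genes tested. Of the Fanconi anaemia genes Fancc alone was tested, with a difference of 0.07. No further end joining gene was matched, and 0 of 2 further mismatch repair genes passed the filter.

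**Figure D3:**
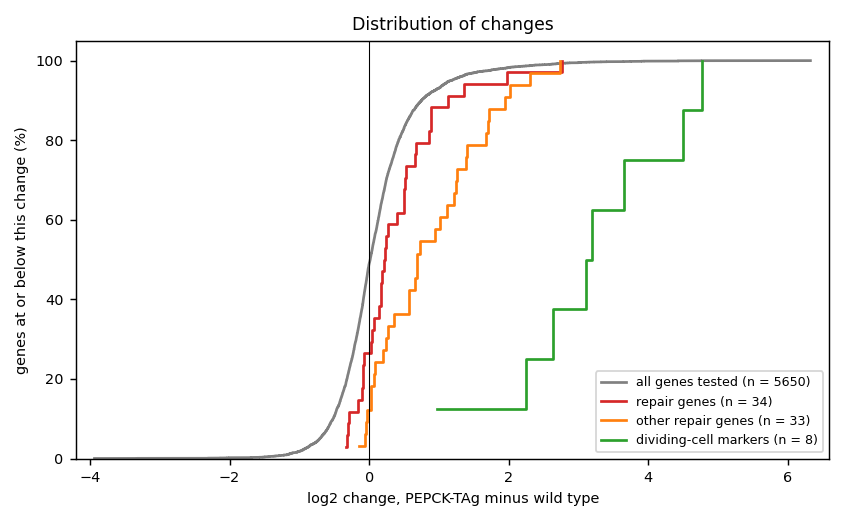
Cumulative share of genes (y axis, percent) at or below each log2 change from wild type to PEPCK-TAg (x axis), for all 5650 genes tested, 34 repair genes, 33 other repair genes and 8 markers of dividing cells. The repair genes run from -0.33 to 2.77 with a median of 0.22, against 0.01 for all genes, and the dividing-cell markers lie further right, with a lowest change of 0.98.

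Markers of dividing cells were also higher in PEPCK-TAg liver. All 8 tested of the 11 matched markers rose (limma, adjusted p under 0.05), by 0.98 to 4.77 in log2, and all 11 read higher on both PEPCK-TAg arrays. Of all genes tested 6.83% rose; 5 of the 8 had a wild-type mean below the filter, and with no filter 8 of the 11 were called. Their summed signal was 603 to 680 in wild type and 4644 to 5732 in PEPCK-TAg, and Mki67, expressed through the cell cycle but not at rest, went from 5.80 and 8.70, within the control range, to 672 and 431. A second Mki67 probe set read 99.1 and 81.9 in wild type, against 70.1 and 75.1 in PEPCK-TAg, a log2 difference of -0.27 that did not pass (limma adjusted p = 0.516). The part of these markers in the rises of Chek1, Brca2, Brca1 and Rad21 was not tested.

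Of 9 macrophage markers tested, 4 rose (Mpeg1, Cd14, Cd5l and Clec4f), against 6.83% of all genes tested, and with no filter Mpeg1 and Cd14 were called. Adgre1, Csf1r, Lyz2 and Marco had overlapping groups, and a second Csf1r probe set differed by -0.93 (limma adjusted p = 0.131). The summed signal of the 9 was 2562 to 4629 in wild type and 9048 to 11847 in PEPCK-TAg, with no marker at 0; their part was not tested either. Of 9 hepatocyte genes 1, F2, was lower, against 3.01% of all genes tested, a call lost with no filter (limma adjusted p = 0.0914). At an unadjusted p under 0.05 (limma) 4 were lower and 0 higher, against 11.3% and 16.6% of all genes tested. Both PEPCK-TAg arrays lay below wild type for 6, against 26.7%. The summed signal of the 9 hepatocyte genes was 74620 to 84336 in wild type and 58821 to 66085 in PEPCK-TAg. Of 4 stellate cell genes Col3a1 rose, a call also lost with no filter (limma adjusted p = 0.0696). None passed by limma among 8 endothelial markers (2 lower at an unadjusted p under 0.05), 4 lymphocyte markers (1 higher and 1 lower) and 3 red blood cell markers (1 lower). The T cell genes Cd3e, Cd3g and Cd8a and 4 bile duct markers lay below the filter.

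**Figure D4:**
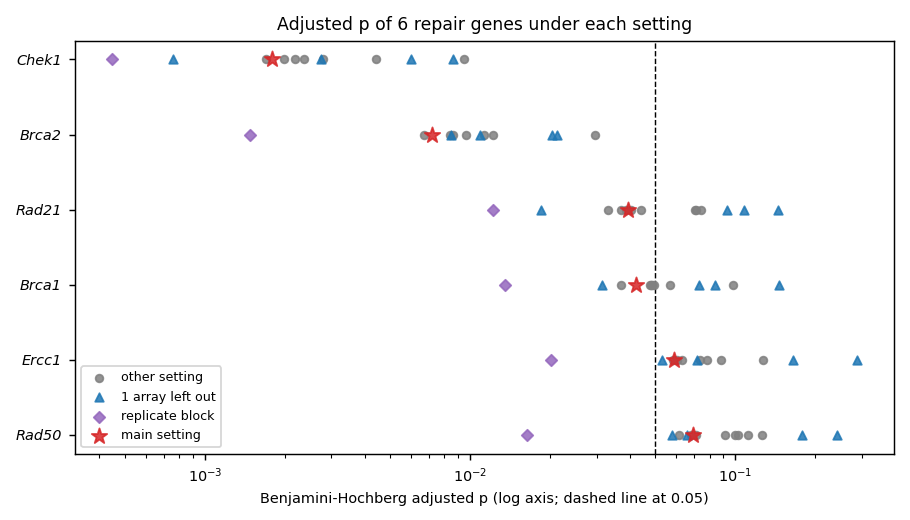
Benjamini-Hochberg adjusted p from limma (x axis, log scale) for the 6 repair genes called in at least 1 setting, with a star for the main setting, triangles for fits without 1 array, a diamond for the fit with the replicate number as a block and circles for the other settings. All points of Chek1 and Brca2 lie left of the dashed line at 0.05, those of Rad21 and Brca1 lie on both sides, and for Ercc1 and Rad50 only the block fit lies left of it.

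Chek1 and Brca2 stayed past the threshold whichever array was left out, with log2 changes of 2.57 to 2.97 and 1.75 to 2.19. Brca1 and Rad21 each passed in 1 of the 4 such fits, with log2 changes of 1.005 to 1.72 and 0.65 to 1.12, always above 0. PEPCK-TAg replicate 1 read higher than replicate 2 for Chek1, Brca1 and Rad21 and lower for Brca2.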

How the data were processed

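Total liver RNA of 2 wild-type and 2 PEPCK-TAg samples was measured on 4 arrays, grouped by their titles. The deposited intensities are linear MAS5 signals, according to the submitters' processing notes; software version and scaling target: not given in the sources used here. Detection calls were not used here. The trimmed mean, without 2% at each end, was 250.2 on every array, so no further scaling was applied. Chip lot and scan day were shared, per the file headers.

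Symbols came from the platform annotation (10833 of 12422 non-control probe sets had 1 symbol). Signals were taken as log2(signal + 13), with the offset at 5% of the trimmed mean, which understates changes of dim genes. Probe sets at or above the 40th percentile of mean log2 signal were kept (7453). Genotypes were compared by a two-sided test in limma 3.58.1, run in R 4.3.3 (eBayes with trend, 2 residual degrees of freedom, Benjamini-Hochberg threshold 0.05). No exact permutation test was run, since 2 against 2 cannot give a p below 0.333. The number of arrays limits precision. The code was checked on simulated arrays.

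Every matched member could be named, up to 4 called genes for each other list. Members and lists were chosen with earlier results of these data known. The alternatives covered offset, filter, normalization, variance prior, replicate block, probe set choice and each array left out.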

Additional observations from a re-analysis of the deposited data

How the results depend on the processing

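Among the 34 tested repair genes, 405 of 418 fits under an alternative kept the side of the threshold. Most of these were fits of the 30 genes not called, so the figure says little about the called genes. The 11 losses were those of Brca1 and Rad21 given above, and the 2 gains were Rad50 (adjusted p 0.0163) and Ercc1 (0.0201) in the fit with the replicate number as a block. No called gene changed sign; 8 genes that were not called did in at least 1 alternative, all with a change under 0.3 in size. The choice of probe set left the count of 4 genes higher. With no filter 2 repair genes were higher, 1 of them in recombination, and 105 probe sets were lower. The filter at the 60th percentile tested 10 repair genes and left out Chek1, Brca1 and Brca2. With it 1 repair gene was higher, the cohesin gene Rad21, grouped with recombination, and 0 in the checkpoint. In that setting 6 other repair genes were higher, and the median of the 10 repair genes was 0.055. The median was 0.14 with quantile normalization and 0.078 with median centring. Median centring moved the median of all probe sets to -0.14, and the repair genes stood 0.21 above it in both that and the main setting. It gave 403 probe sets higher and 409 lower, so that 49.6% of calls were higher in place of 67.6% (477 higher and 229 lower). Without the variance trend 117 probe sets were lower. Leaving out 1 array gave 2 to 3 repair genes higher, 1 to 2 of them in recombination, a median of 0.20 to 0.29, 294 to 401 probe sets higher and 94 to 147 lower. The cause of these shifts was not tested.

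The shared replicate numbers are not stated to pair animals. Deviations of the replicate 1 arrays from their group means correlated at 0.181 across probe sets. With 2 arrays per group the replicate 2 arrays must give the same value, so it counts once. The replicate block raised the counts to 696 probe sets higher and 444 lower and to 1 gene of nucleotide excision repair. Signals near those of the yeast and bacterial controls limit what can be said of dim genes.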
